A study of Mus musculus with 6 samples.

Results

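The glucocorticoid receptor gene Nr3c1 and 9 genes that the receptor is known to induce, namely Fkbp5, Zbtb16, Klf15, Klf9, Slc10a6, Tsc22d3, Sgk1, Mt1 and Mt2, were followed in the kidney glomeruli of dendrin knockout mice and littermate controls. Among these 10 genes, Fkbp5, Zbtb16, Klf15, Klf9 and Slc10a6 had higher means in the knockout glomeruli, by 0.39 to 2.38 on the log2 scale. Tsc22d3, Sgk1, Mt1 and Mt2 differed by less than 0.1 in either direction. The receptor gene itself was lower by 0.12. The array annotation assigned 29 of the 45101 probe sets to exactly 1 of the 10 genes, and all of them are accounted for here. The genes were selected on their roles and on the differences between knockout and control mice in these same arrays, so the values of this contrast describe them and are given with no test.

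Gene expression was measured in glomeruli of 3 dendrin knockout mice and 3 wild type littermates, all 13 months old, with 1 Affymetrix array per mouse. The knockout allele replaces the whole dendrin coding sequence by an eGFP reporter and a neomycin cassette in every cell of the body. All 6 mice carry a mixed 129S6SvEv/C57BL6 background according to the labels, and the paper describes repeated backcrossing onto C57BL/6. Neither the sex of the mice nor the hour at which the kidneys were taken is given in the sources used here. Values are GCRMA values, background-corrected and normalized signals on the log2 scale, so that a difference of 1 is a doubling. A probe set whose mean over the 6 mice lies under log2 4 is called dim, since the signal of this array is then hardly above its floor of 2.203.

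Cortisol and, in mice, corticosterone cross the cell membrane and bind the glucocorticoid receptor, which is held in the cytoplasm by a complex of heat shock proteins and co-chaperones. The bound receptor moves to the nucleus and acts on glucocorticoid response elements, short inverted repeats in DNA, to switch on genes such as those listed above. Podocytes express the receptor, and glucocorticoids are the common treatment of nephrotic syndrome. Corticosterone secretion follows a daily rhythm and rises with stress.

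Dendrin itself, Ddn, was at 3.80, 3.81 and 3.80 in knockout 1, 2 and 3 and at 12.22, 12.81 and 12.31 in control 1, 2 and 3, which fits the labels. Podocyte markers were high on every array, among them Podxl, Synpo and Ptpro, as belongs to glomeruli. Markers of the adrenal cortex, the source of corticosterone, were dim for all 5 genes measured, and the 3 adipocyte genes measured lay at or next to the floor. Control 2 stood apart. Its distal nephron genes lay above the mean of the 6 mice by a median of 1.41, its proximal tubule genes by 1.08, and its leukocyte genes at a median of -1.87. Control 3 departed the other way for proximal tubule genes, with a median of -0.80, the lowest of the 6 mice. In whole glomeruli, fewer cells of a type and less RNA per cell cannot be told apart.

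Of the 29 probe sets, 3 had the same value on all arrays and 1 more was dim. Among the remaining 25, knockout was higher for 18 and lower for 7. All 3 knockout mice lay above all 3 controls for 8 of the 25, where 8.03% of all probe sets that are not dim do so, and below them for 4, where 5.65% do so. The paper's results call a probe set by a fold over 1.5 and an unadjusted p under 0.05. Its methods name SAM (Significance Analysis of Microarrays) for finding such genes. The same limits with p from limma, called the criterion here, were met by 4 of the 29 probe sets, 2 of Fkbp5 and 1 each of Slc10a6 and Klf15. The p of SAM gave the same 4. All were higher in knockout, against 0.0843% of all probe sets in that direction and 0.18% in either. Of the 45101 probe sets, 25482 are dim. With the dim ones left out of the fit, 0.566% of the rest passed in either direction, and 5 member probe sets. Because the genes were picked with this contrast known, nothing is read from these shares. The number that met the criterion was 1, that of Slc10a6, without knockout 1 or knockout 3. It was 2 without knockout 2 or control 2 (Klf15 and Slc10a6), 2 without control 3 (Fkbp5 and Slc10a6), and 5 without control 1, where 2 probe sets of Zbtb16 joined those of Fkbp5 and Slc10a6.

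**Figure D1:**
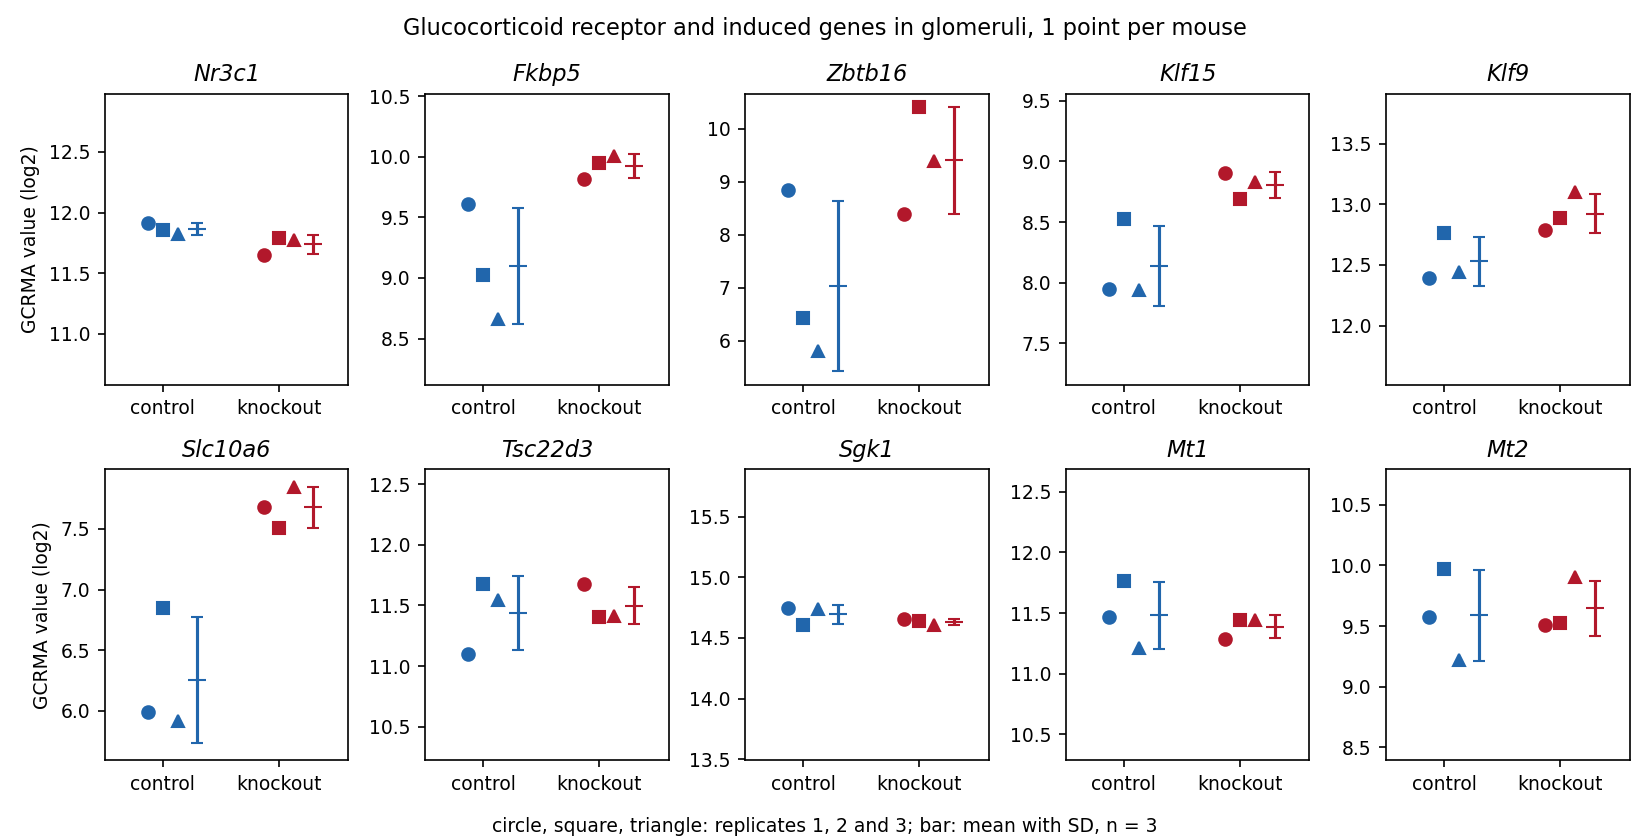
GCRMA value (log2) of each of the 10 genes in the 3 control (blue) and 3 knockout mice (red), for the probe set with the highest mean, with circles, squares and triangles for replicates 1, 2 and 3 and bars for the mean and SD of each group (each axis has its own range, of at least 2.4 log2 units). The groups separate for Fkbp5, Klf15, Klf9 and Slc10a6, all higher in knockout, and for Nr3c1, lower in knockout by 0.12, and they overlap for the other 5 genes.

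Nr3c1, the receptor gene, lies on chromosome 18 (GRCm38.p6, 39410545 to 39519421). Its brightest probe set was at 11.65, 11.79 and 11.78 in knockout and 11.91, 11.86 and 11.82 in control glomeruli. The 3 knockout values were the lowest, but the closest mice of both groups were only a few hundredths apart. Knockout mice had a mean of 11.74 ± 0.078 and controls one of 11.86 ± 0.046 (SD, n = 3 mice here and below). The difference was -0.12 (limma standard error 0.050), or 1.09-fold lower. The other probe sets of the gene pointed the same way. All 5 that are not dim were lower in knockout, by 0.075 to 0.25. In 4 of them all knockout mice lay below all controls, as in 5.65% of all probe sets that are not dim. The dim probe set differed by 0.057 with overlapping groups. With each mouse left out in turn, the brightest one stayed between -0.15 and -0.079.

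Fkbp5 and Tsc22d3 act back on the receptor or on what it controls, and of these only Fkbp5 separated the groups. Fkbp5, on chromosome 17 (28398753 to 28486149), encodes a co-chaperone that joins the receptor complex and lowers its affinity for hormone. It was at 9.82, 9.95 and 10.01 in knockout and at 9.61, 9.03 and 8.66 in control mice. The knockout mice were close together, whereas the controls spread over nearly a doubling, with control 1 next to the knockout range. The means were 9.92 ± 0.098 and 9.10 ± 0.48, a difference of 0.83 (standard error 0.27). A further probe set was at 7.89, 8.09 and 7.99 in knockout and at 7.52, 7.09 and 6.35 in control glomeruli. It kept the order of the control mice and gave a difference of 1.003 (standard error 0.33). The last of the 3 probe sets was at the floor on all arrays. Without control 3, the lowest mouse, the difference of the brighter probe set was 0.61, and without control 1 it was 1.08.

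Tsc22d3, on the X chromosome (140539528 to 140600522), encodes the glucocorticoid-induced leucine zipper, which dampens inflammatory transcription factors. Its brightest probe set was at 11.68, 11.41 and 11.42 in knockout and at 11.10, 11.68 and 11.54 in control mice. Control 1 was the lowest and control 2 the highest, so the groups overlapped. The difference was 0.058 with a standard error of 0.19. A second bright probe set was at 0.036, again with control 1 lowest and control 2 highest. The third was near the dim level in all mice, between 4.09 and 4.16, and the fourth stood at the floor. The sign of the gene turned without control 1 (-0.11) and without knockout 1 (-0.030). Fkbp5 and Tsc22d3 thus placed control 1 at opposite ends of the control group.

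**Figure D2:**
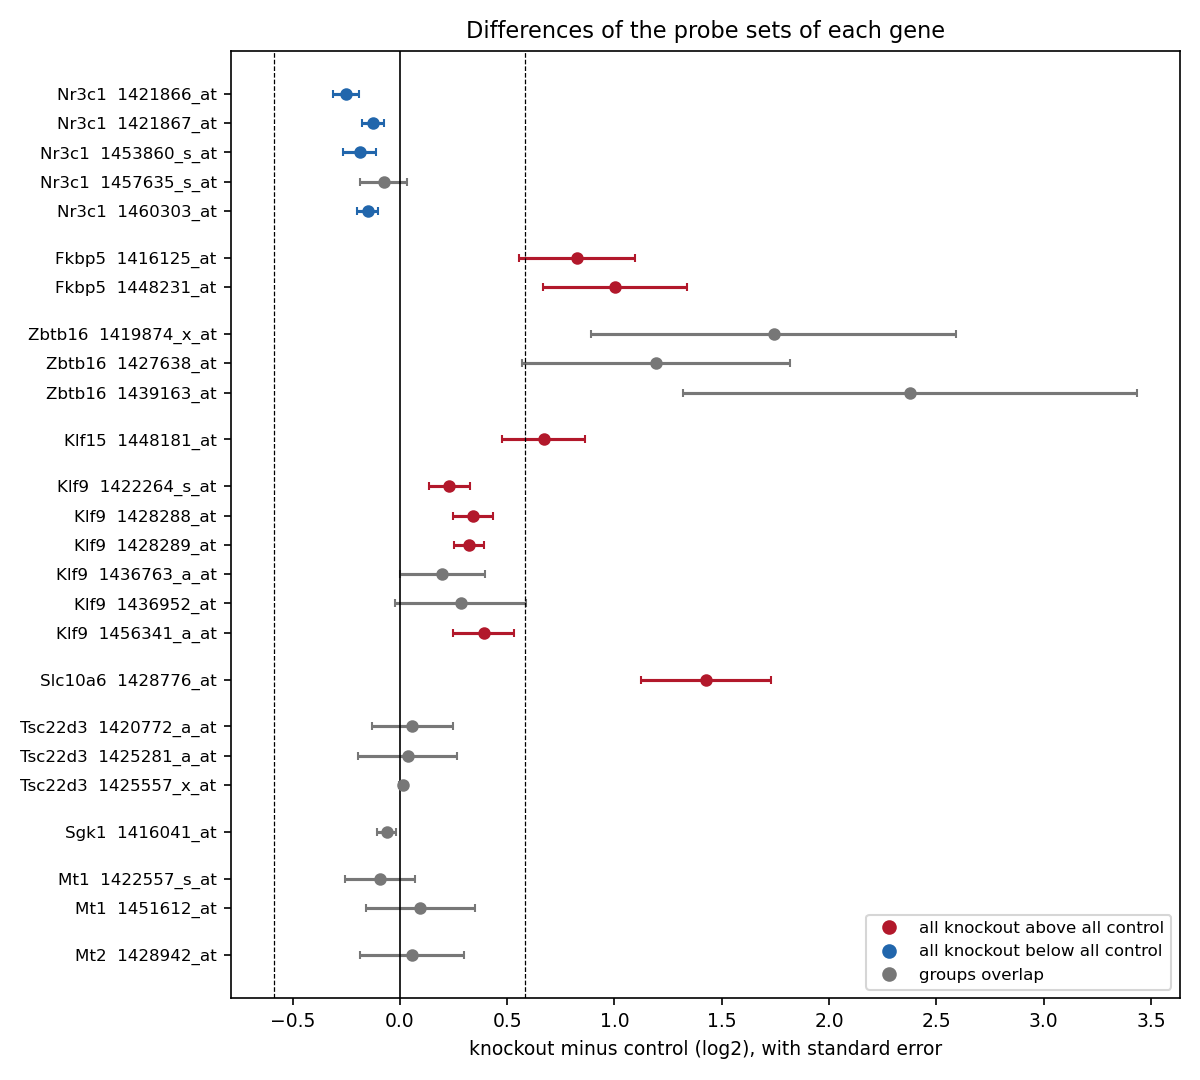
Difference between knockout and control (log2, with its limma standard error) for each of the 25 probe sets of the 10 genes that are not dim. Red and blue points mark probe sets with all knockout mice above or below all controls, grey points those with overlap, and dashed lines a 1.5-fold difference. The probe sets of a gene point the same way for every gene with several except Mt1.

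Transcription factors made up the next group. Zbtb16 (chromosome 9, 48651797 to 48836225) encodes the zinc finger repressor PLZF and had the largest difference of the 10 genes together with the widest spread. The brightest of its 3 probe sets was at 8.40, 10.42 and 9.40 in knockout and at 8.85, 6.42 and 5.81 in control mice. Control 1 exceeded knockout 1, so the groups overlapped. The means were 9.40 ± 1.01 and 7.03 ± 1.61, a difference of 2.38 (standard error 1.06), or 5.19-fold. The 2 other probe sets, at 1.74 (standard error 0.85) and 1.19 (standard error 0.62), also had knockout 2 highest and controls 2 and 3 lowest. None of the 3 met the criterion with all mice. Without control 1 the difference was 3.29, without knockout 1 it was 2.88, and without control 3 it was 1.77.

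Klf15 (chromosome 6, 90461043 to 90491803) encodes a Krüppel-like zinc finger factor of amino acid and glucose metabolism that in podocytes is known to favour the differentiated state. Its single probe set was at 8.90, 8.69 and 8.83 in knockout and at 7.95, 8.52 and 7.94 in control glomeruli. The knockout mice were within a narrow range, and control 2 was the nearest of the controls to it. The means were 8.81 ± 0.11 and 8.14 ± 0.33, a difference of 0.67 (standard error 0.19), or 1.59-fold. The difference was 0.86 without control 2 and 0.57 without control 3. The RefSeq promoter table holds 1 window for the gene, from 250 bases before to 50 after a transcription start (chr6:90462326-90462625, plus strand). This start lies inside the stated span of the gene, not at its first base. The window is shown because it holds several copies of the E-box CACGTG, a palindrome read by clock factors among others. There are 3 of them, in capitals, beginning at positions -228, -172 and -3 counted from the start. The one at -172 overlaps a metal response element, described with the metallothioneins, at -169. The letters occur in 7.15% of all 32851 such windows of the mouse genome table, and 3 or more copies in 0.0883%.
Klf15: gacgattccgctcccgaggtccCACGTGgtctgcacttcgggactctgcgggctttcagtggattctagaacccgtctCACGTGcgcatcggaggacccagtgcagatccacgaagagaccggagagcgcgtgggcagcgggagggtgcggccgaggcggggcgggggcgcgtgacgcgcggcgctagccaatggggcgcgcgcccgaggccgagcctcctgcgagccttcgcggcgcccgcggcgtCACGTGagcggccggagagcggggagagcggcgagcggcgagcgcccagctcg
The match is one of letters, and no binding was measured. The window of Fkbp5 and 1 of the 6 of Sgk1 hold 1 E-box each.

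Klf9 (chromosome 19, 23141226 to 23168129) encodes a related factor that is induced quickly by glucocorticoids and by thyroid hormone. With 7 probe sets it is the gene measured most often. The brightest was at 12.79, 12.88 and 13.10 in knockout and at 12.39, 12.76 and 12.44 in control mice. The lowest knockout mouse and the highest control were almost level, and the difference was 0.39 (standard error 0.14), or 1.31-fold. In all 6 probe sets that are not dim the knockout mean was higher, by 0.20 to 0.39. In 4 of the 6 all knockout mice lay above all controls, as in 8.03% of all probe sets that are not dim. The remaining probe set was at the floor. None reached 1.5-fold, either with all mice or as the mean of the gene's probe sets (0.25).

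Among effectors at the cell surface and in the cytosol, Slc10a6 had the largest difference. It lies on chromosome 5 (103605711 to 103629403) and encodes a transporter of sulfated steroids. Its single probe set was at 7.68, 7.51 and 7.85 in knockout and at 5.99, 6.85 and 5.91 in control glomeruli. No control reached the knockout range, although control 2 was higher than the other two. The means were 7.68 ± 0.17 and 6.25 ± 0.52, a difference of 1.43 (standard error 0.30), or 2.69-fold, and leaving out a mouse moved it between 1.26 and 1.72. It was the only gene of the 10 that met the criterion in each of these omissions. As the genes were picked with this contrast known, nothing is read from that. Its promoter window is shown because it holds the relaxed form of the response element, GNACANNNTGTNC (its own reverse complement, so both strands are covered). The window is chr5:103629354-103629653 on the minus strand, and the match in capitals begins at -163 from the start. This pattern occurs in 0.475% of all windows.
Slc10a6: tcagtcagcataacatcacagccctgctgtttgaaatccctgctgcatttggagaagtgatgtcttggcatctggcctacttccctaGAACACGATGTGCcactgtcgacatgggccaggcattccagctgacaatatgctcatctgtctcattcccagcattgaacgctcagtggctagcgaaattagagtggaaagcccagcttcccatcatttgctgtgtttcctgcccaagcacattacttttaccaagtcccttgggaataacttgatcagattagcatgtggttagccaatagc
Among the member windows, the same pattern was present for Mt1 and for 1 of the 6 starts of Sgk1.

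Sgk1 (chromosome 10, 21882184 to 21999903) encodes a kinase that keeps the epithelial sodium channel at the cell surface. It was at 14.65, 14.64 and 14.61 in knockout and at 14.75, 14.61 and 14.74 in control mice. The groups overlapped, with a difference of -0.062 (standard error 0.046). Its sequence is shown because it alone among the windows of the member genes holds the full palindrome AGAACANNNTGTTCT, also its own reverse complement, which is present in 3 of the 32851 windows (0.00913%). The window belongs to 1 of 6 annotated starts (chr10:21993640-21993939, plus strand), and the element, which contains the relaxed form, begins at -189.
Sgk1: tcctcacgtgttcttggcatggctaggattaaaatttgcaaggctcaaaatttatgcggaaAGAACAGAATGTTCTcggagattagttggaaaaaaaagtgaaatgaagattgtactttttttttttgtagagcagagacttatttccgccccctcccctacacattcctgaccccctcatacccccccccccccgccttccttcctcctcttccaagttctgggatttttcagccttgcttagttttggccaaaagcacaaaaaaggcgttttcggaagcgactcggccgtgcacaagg
Which of the 6 starts is used in glomeruli cannot be read from a probe set.

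The metallothioneins Mt1 and Mt2 are neighbours on chromosome 8 (94178883 to 94180327 and 94172618 to 94173567). Both encode small cysteine-rich proteins that bind zinc and copper, and both respond to metals through the factor Mtf1 as well as to glucocorticoids. The bright probe set of Mt1 was at 11.28, 11.44 and 11.44 in knockout and at 11.47, 11.76 and 11.21 in control mice. The controls enclosed all knockout values, and the difference was -0.092 (standard error 0.16). The second probe set of Mt1, close to the dim level, was at 0.095 (standard error 0.25). Mt2 was at 9.51, 9.52 and 9.91 in knockout and at 9.57, 9.97 and 9.22 in control mice. Again the lowest and the highest mouse were controls, and the difference was 0.057 (standard error 0.24). In both genes control 2 was the highest and control 3 the lowest of the 6 mice. Leaving out control 2 turned Mt1 to 0.050, and leaving out control 3 or knockout 3 turned Mt2 to -0.13 and -0.073.
The promoter windows of both genes are shown for their metal response elements, TGCACNC or TGCGCNC on either strand, in capitals. Mt1 (chr8:94178839-94179138, plus strand) has 3, beginning at -23, 3 and 21, and Mt2 (chr8:94172368-94172667, plus strand) has 4, beginning at -223, -128, -50 and 5. At least 1 occurs in 25.7% of all windows, 3 or more in 1.97% and 4 or more in 0.517%. The relaxed glucocorticoid pattern of Mt1 begins at -94, outside these elements. Positions count from the transcription start of each window. For Mt1 that start lies inside the stated span of the gene, not at its first base.
Mt1: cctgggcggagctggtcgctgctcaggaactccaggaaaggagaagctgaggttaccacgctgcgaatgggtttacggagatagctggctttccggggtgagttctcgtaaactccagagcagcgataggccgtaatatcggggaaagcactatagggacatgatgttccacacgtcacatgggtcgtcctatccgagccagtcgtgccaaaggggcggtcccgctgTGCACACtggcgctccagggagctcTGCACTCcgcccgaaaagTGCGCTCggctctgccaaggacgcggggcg
Mt2: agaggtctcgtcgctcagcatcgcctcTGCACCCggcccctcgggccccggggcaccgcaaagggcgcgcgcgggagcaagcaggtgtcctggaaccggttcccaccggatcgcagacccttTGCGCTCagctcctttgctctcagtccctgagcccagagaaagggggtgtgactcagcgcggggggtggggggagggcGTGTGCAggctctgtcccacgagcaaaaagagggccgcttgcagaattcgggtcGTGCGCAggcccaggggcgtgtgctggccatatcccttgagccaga
RefSeq windows of assembly GRCm38.p6 were found for 8 of the 10 genes, 15 windows in all. The 4 windows of Klf9 and Tsc22d3 held none of the patterns searched, which says only that these letters are not in them.

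**Figure D3:**
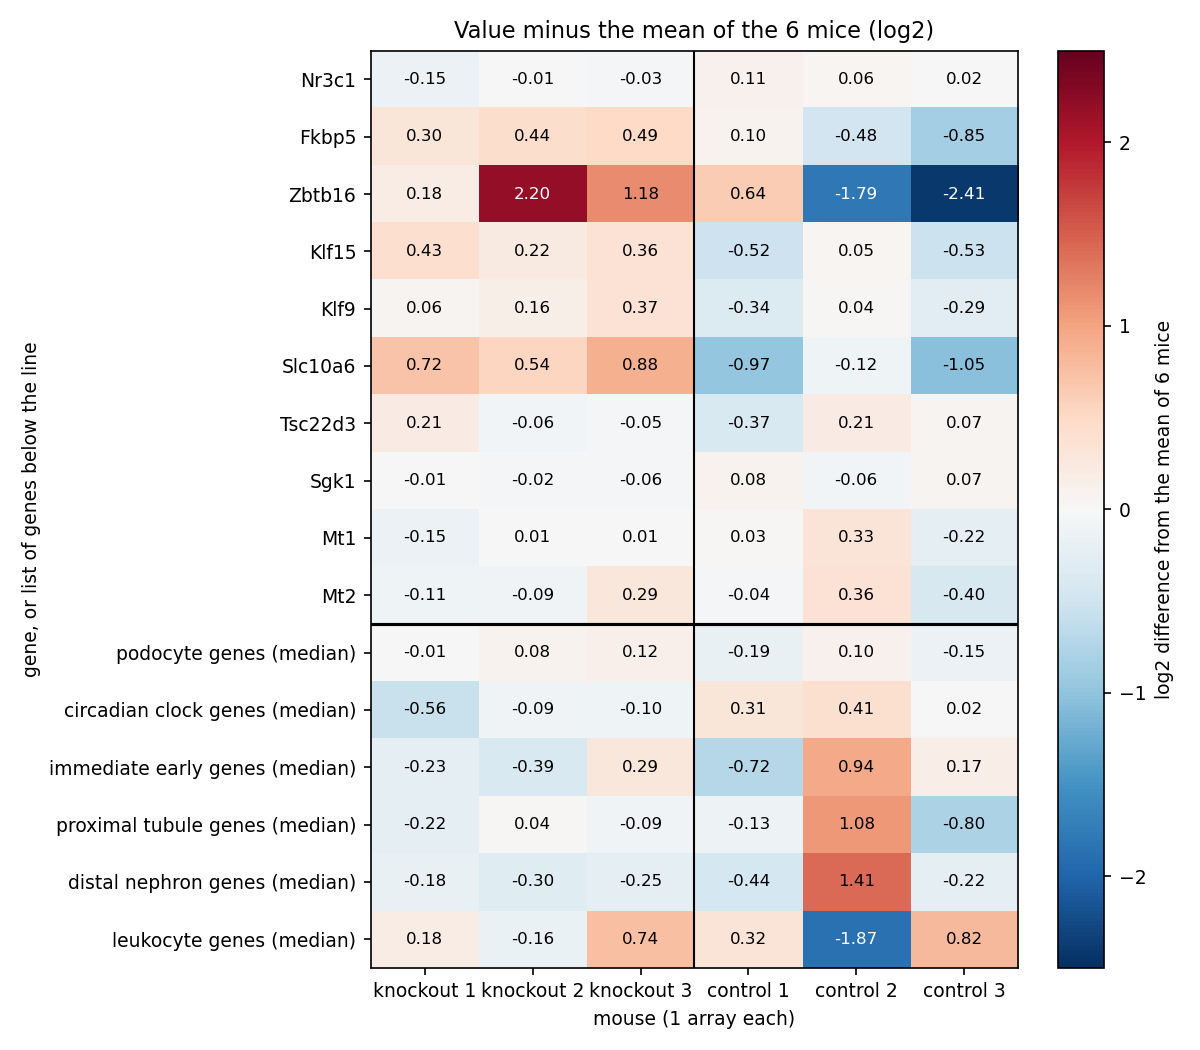
Value minus the mean of the 6 mice (log2) for each of the 10 genes, and below the line the median of the same quantity over lists of other genes. Columns are mice, red is higher and blue lower. Zbtb16 and Fkbp5 are lowest in controls 2 and 3, Slc10a6 and Klf15 in controls 1 and 3, and the tubule and leukocyte lists depart most in control 2.

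The induced genes did not share 1 order among the controls. Control 3 was the lowest of the 6 mice for 6 of the 10 genes. Control 1 was the highest control for Fkbp5 and Zbtb16 and among the lowest mice for Klf15, Klf9, Slc10a6 and Tsc22d3. Zbtb16 lay above its mean by 0.64 in control 1 and below it in the other controls, at -1.79 and -2.41. Slc10a6 lay at -0.97 and -1.05 in controls 1 and 3 and at only -0.12 in control 2. For Fkbp5, Klf15, Klf9 and Slc10a6 the knockout mice were more alike, with SDs of at most 0.17, whereas the control SDs ran from 0.20 to 0.52. Zbtb16 spread widely in both groups, with SDs of 1.01 in knockout and 1.61 in control mice. Nr3c1 had the larger SD in knockout, 0.078 against 0.046.

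Values of other gene lists also differed between the groups or between single mice. Of 14 circadian clock genes, 11 were lower and 3 higher in knockout, with a median difference of -0.52, Hlf at -0.94 (standard error 0.34), Ciart at -0.87 (0.46), Per3 at -0.80 (0.30) and Cry1 at -0.74 (0.31). Hlf met the criterion and the other 13 did not. The 3 higher genes were Clock at 0.30 (standard error 0.11) and the dim Arntl at 0.78 (0.49) and Npas2 at 0.0076 (0.0073). For Clock and Arntl all knockout mice lay above all controls. For 5 genes, Per3, Cry1, Cry2, Tef and Hlf, none of them dim, they lay below all controls. Of all probe sets that are not dim, 8.03% lay above in this way and 5.65% below. Clock, Arntl, Npas2, Cry2 and Tef are named after their values were seen. The median and the summed level pool genes of both directions. Knockout 1 was the lowest mouse for 10 of the 11 clock genes that are not dim, and control 2 the highest for 9. Their summed level ran from 14.39 to 14.86 (log2) in knockout and from 14.84 to 15.18 in control mice, and the median was -0.34 without knockout 1. Immediate early genes, which respond to handling and dissection, varied between mice of a group. Of 10 genes, 8 were lower and 2 higher in knockout, none past the criterion, with Atf3 at -0.85 (standard error 0.83), Fos at -0.76 (0.72), Jun at -0.57 (0.39) and Nr4a1 at 0.49 (0.60). Their median deviation was -0.72 in control 1 and 0.94 in control 2. Summed levels of distal nephron genes were 11.44 to 11.92 in knockout and 11.45 to 13.66 in control, and those of leukocyte genes 13.74 to 14.80 and 11.83 to 14.56. Those of proximal tubule genes were 10.61 to 11.46 in knockout and 9.23 to 12.15 in control, lowest in control 3 and highest in control 2. The T cell gene Cd3e was at the floor on all arrays. Endothelial genes were lower in knockout for 8 of 8, with a median difference of -0.17 and no call by the criterion. In 4 of the 8 all knockout mice lay below all controls, as in 5.65% of all probe sets that are not dim. Their list had summed levels of 15.77 to 15.88 in knockout and 15.89 to 15.97 in control mice. Podocyte genes were higher for 5 of 5, with a median difference of 0.16 and summed levels of 16.21 to 16.32 and 16.10 to 16.32. Of 7 mesangial and smooth muscle genes, 5 were higher and 2 lower, and Tagln, of smooth muscle, passed the criterion at 0.68 (standard error 0.24), with Acta2 at 0.44 (standard error 0.19). The summed levels of this list were 14.97 to 15.07 in knockout and 14.92 to 15.09 in control mice. Of 6 fibroblast genes, 3 were dim, 2 of them with the same value on all arrays. Pdgfra passed the criterion at -0.59 (standard error 0.17), and the list summed to 12.01 to 12.27 in knockout and 12.29 to 12.57 in control mice. Dcn, of fibroblasts, and Cldn1, of parietal epithelium, did not pass, but lay higher in all 3 knockout mice than in all controls, by 1.06 and 0.74. These 5 genes are named after their values were seen. The part of any of these in the differences of the 10 genes was not tested. Without control 2, where tubule and leukocyte genes departed most, Fkbp5 differed by 0.79, Zbtb16 by 2.07, Klf15 by 0.86, Klf9 by 0.51 and Slc10a6 by 1.72.

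Further genes of the pathway were taken from 5 lists. Of 75 genes, 70 have a probe set of their own and 51 of these are not dim. None of the 70 passed the criterion in either direction with limma, beside 0.18% of all probe sets, and none reached an adjusted p under 0.05, as 0.00222% of all probe sets did, that is 1, for Ddn. Limma gave an unadjusted p under 0.05 to 2 of the 70 (2.86%), Rgs2 and Slc39a10, beside 3.63% of all probe sets. SAM gave it to 4 (5.71%), these and Cdkn1a and Map3k6, beside 5.18% of all, and none passed the criterion with it either. Of the 45101 probe sets, 16139 had the same value on all arrays and could not get such a p. Nearly all of the 70 vary, so the shares of all probe sets are too low for a comparison with them. The 0.18% became 0.566% with the dim probe sets left out of the fit. Rgs2 and Map3k6 are named after their values were seen. Among the 51 genes that are not dim, 35 were higher and 16 lower in knockout, with a median of 0.11, where the median of all such probe sets was 0.015.

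The partners of the receptor differed little. Of 15 measured chaperones, coregulators and steroid enzymes, 9 were higher and 6 lower, with a median of 0.014. Stip1, which encodes the adaptor between the heat shock proteins that load the receptor, was at 9.57 ± 0.19 in knockout and 9.35 ± 0.63 in control glomeruli. Ep300, a histone acetyltransferase, was at -0.24 (standard error 0.11), and Nr3c2, the mineralocorticoid receptor, at -0.20 (standard error 0.14). Hsd11b2, whose enzyme inactivates corticosterone in the distal nephron, was at 6.21, 6.79 and 6.79 in knockout and at 6.78, 8.15 and 6.83 in control mice. Control 2, the mouse with the highest distal nephron genes, was also the highest here, and the difference was -0.66 (standard error 0.47). Hsd11b1, which regenerates the active hormone, was dim.

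Other genes known to be induced by glucocorticoids were higher more often than lower, 23 against 5 of 29, with a median of 0.14, but none passed the criterion. Ddit4, an inhibitor of mTOR signalling, was at 10.01, 9.74 and 9.83 in knockout and at 7.64, 9.25 and 10.21 in control mice. Control 1 was the lowest and control 3 the highest mouse of all, and the difference was 0.83 (standard error 0.72). Angptl4, an inhibitor of lipoprotein lipase, was at 0.58 (standard error 0.40), and the Ras-related gene Rasd1 at 0.48 (standard error 1.10), with 3.31 in control 1 against at least 5.01 in every other mouse. Cdkn1a, the cell cycle inhibitor p21, was higher in all 3 knockout mice than in all controls, with a difference of 0.49 (standard error 0.20). Of the 23 genes of this list that are not dim, 3 separated the groups in this way. Of all probe sets that are not dim, 8.03% did so. The early targets Dusp1, a MAP kinase phosphatase, and the clock gene Per1, both named here after their values were seen, were at 0.11 (standard error 0.28) and -0.011 (standard error 0.58). Control 1 was the lowest mouse for 11 of the 23 genes of this list that are not dim. Without it the median of the list was 0.043, without knockout 3 it was 0.062, and without control 2 it was 0.24.

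**Figure D4:**
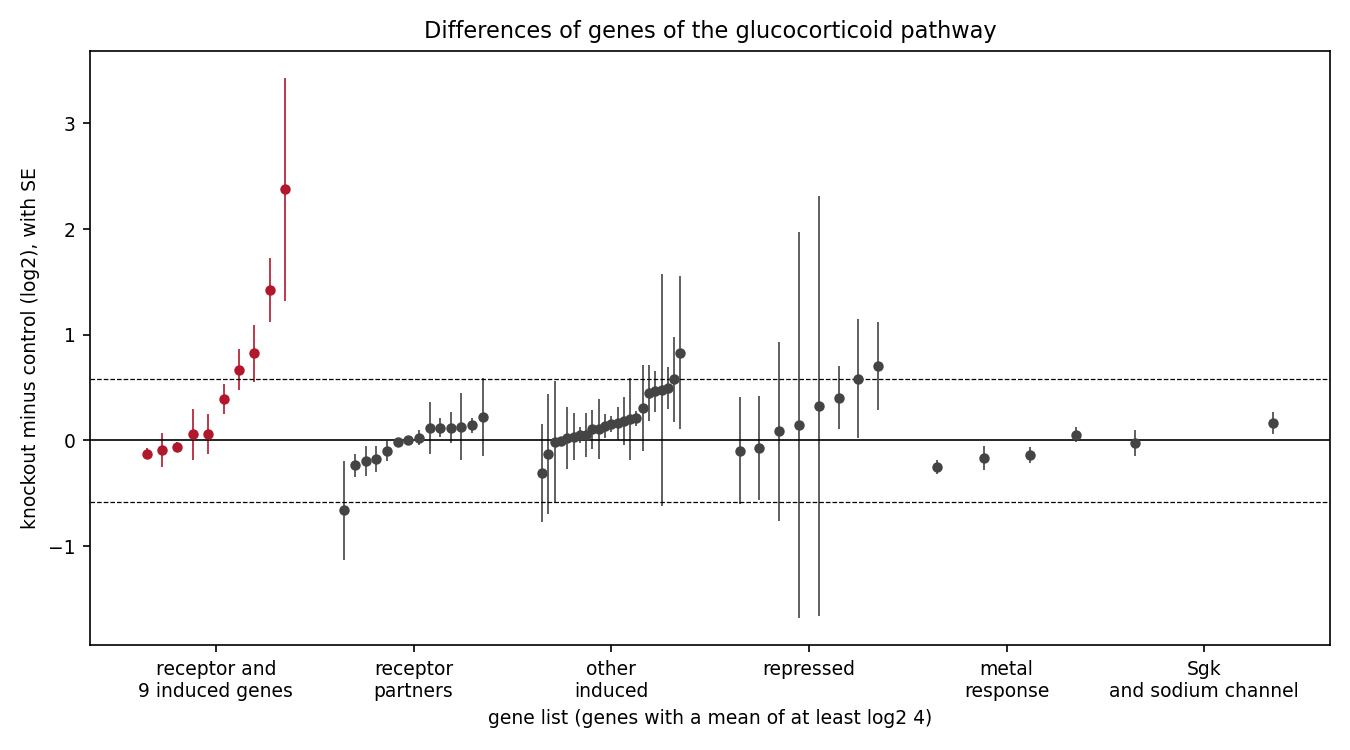
Difference between knockout and control (log2, with its limma standard error) for the 10 genes (red) and for the genes of 5 pathway lists (grey) that are not dim, sorted within each list. Dashed lines mark a 1.5-fold difference. Errors of the genes past the lines in the pathway lists are wide, and none of these genes met the criterion.

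Of 14 genes that the receptor represses, such as cytokines and adhesion molecules, 8 are not dim, and of these 6 were higher and 2 lower in knockout, with a median of 0.24. None passed the criterion. Over all 14, dim genes included, the median was 0.036 and changed sign without knockout 1, knockout 3 or control 2. Cxcl1, a neutrophil chemokine, was at 9.40 ± 0.53 in knockout and 8.69 ± 0.53 in control glomeruli. Il1b was at 0.59 (standard error 0.56), Ptgs2, the inducible cyclooxygenase, at 0.40 (standard error 0.30), and the monocyte chemokine Ccl2 at 0.33 (standard error 1.99). Control 2 was the lowest mouse for all 8 genes of this list that are not dim. In Ccl2 it stood at 3.72 and the other mice between 7.06 and 9.71.

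The zinc-responsive genes other than Mt1 and Mt2 gave small differences. Slc39a10, a zinc importer repressed by Mtf1, was at 10.78, 10.63 and 10.78 in knockout and at 10.93, 11.09 and 10.94 in control mice. All knockout values were below all controls, with a difference of -0.25 (standard error 0.068) and an adjusted p of 1 from limma. Gclc, of glutathione synthesis, was at -0.17 (standard error 0.11), the zinc exporter gene Slc30a1 at -0.14 (standard error 0.074) and Mtf1 at 0.055 (standard error 0.074). In the list around Sgk1, Sgk3, a related kinase, was at 0.17 (standard error 0.10) and Nedd4l, the ubiquitin ligase that Sgk1 inhibits, at -0.022 (standard error 0.12). The 3 subunit genes of the epithelial sodium channel, Scnn1a, Scnn1b and Scnn1g, were dim.

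Profiles most like that of Fkbp5 were sought among 17923 probe sets of other genes that are not dim, by the root mean square difference of the centred values over the 6 mice. They were those of 4930486L24Rik (0.24), Sgms1 (0.24), Miga2 (0.25), Zcchc7 (0.25) and Kcnf1 (0.26). Sgms1, a sphingomyelin synthase, was at 11.62, 11.56 and 11.69 in knockout and at 11.15, 11.12 and 10.85 in control glomeruli. For Zbtb16 the nearest were Pttg1 (0.77), Btnl9 (0.98), Rrm2 (1.04), Fkbp5 (1.08, the dimmer probe set) and Pdlim4 (1.15). Pttg1, which encodes securin, was at 11.49, 11.63 and 11.59 in knockout and at 12.32, 8.32 and 8.73 in control mice. It shared with Zbtb16 the high value of control 1. With 6 mice, such likeness describes these arrays only.

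**Figure D5:**
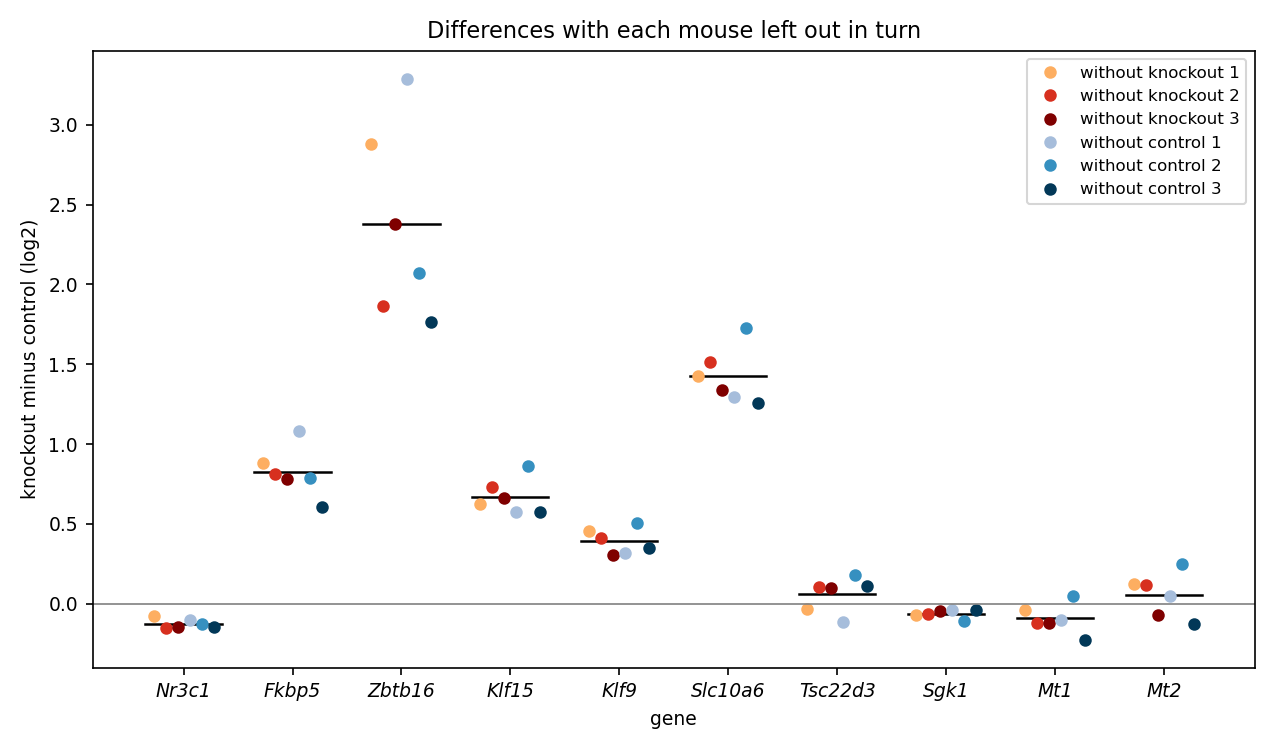
Difference between knockout and control (log2) of each of the 10 genes with all mice (black line) and with 1 mouse left out (points, coloured by the mouse omitted). The values of Fkbp5, Zbtb16, Klf15, Klf9 and Slc10a6 stay above 0 and those of Nr3c1 and Sgk1 below 0 in every omission, and Tsc22d3, Mt1 and Mt2 change sign in some.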

How the data were processed

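Glomerular RNA of 3 dendrin knockout and 3 littermate control mice was hybridized to Affymetrix mouse genome arrays. The authors normalized the raw intensities with GCRMA (version 2.30.0), and the deposited log2 values of 45101 probe sets were used as they are. Raw intensities were not analysed here. Probe sets were named from the platform annotation, and those with several genes (932) or none (9211) were left unnamed. A gene is given by its brightest probe set, by mean over the 6 arrays, unless stated. Knockout and control arrays were compared over all probe sets with limma (version 3.58.1, R 4.3.3), two-sided, without covariates, with Benjamini-Hochberg adjustment. The procedure was checked on simulated data. The genes and lists were chosen with earlier results of these data known. Named genes are the 10 genes, those past the criterion and the 4 largest differences among genes that are not dim in each pathway, clock and immediate early list, up to 3 markers of a cell type, and the 5 profiles nearest to Fkbp5 and Zbtb16. Hsd11b1, Scnn1a, Scnn1b, Scnn1g and Cd3e, all dim, were named after their values were seen. The labels call the arrays biological replicates. The number of arrays limits the precision, since with 3 mice against 3 no exact permutation test can give a two-sided p under 0.1. Promoter windows and coordinates are those of RefSeq for GRCm38.p6. Alternatives were SAM, an intensity trend with a robust prior, filters on low or constant values, median centring, renewed quantile normalization, an offset of 16, weights per array, a replicate block and the omission of each array.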

Additional observations from a re-analysis of the deposited data

How the results depend on the processing

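The median difference of the 10 genes, 0.22, stayed between 0.15 and 0.24 under other scalings, an offset of 16 or the mean of all probe sets of a gene, and between 0.19 and 0.38 with 1 mouse left out. The signs of Tsc22d3, Mt1 and Mt2 turned without single mice and that of Mt1 also as the mean of its probe sets (0.0016). The 4 member probe sets past the criterion ranged from 1 to 5 with 1 mouse left out, and the genes of the 5 pathway lists past it from 0 to 1. The count of all probe sets past it, 81, ran from 78 to 140, the highest without control 2, and was 141 with a filter on the range of values, 106 with SAM, 64 with the replicate block and 54 with the offset. Both filters added probe sets of Zbtb16, giving 5 member probe sets with the filter at log2 4 and 6 with that on range. Of all probe sets kept, 0.566% and 0.613% passed with these filters, against 0.18% without a filter. With the replicate number as a block, 1 member probe set, that of Slc10a6, and 1 pathway gene, Il1b, passed. Same-numbered mice deviated from their group means with correlations of 0.0949, 0.352 and 0.248 across probe sets. The first pair does not show that the numbers pair the mice. Each mouse was nearest to its own number, but control 1 only by 0.0949 against 0.0944 with knockout 3. Deviations from the mean of a group of 3 depend on one another, so these values do not decide whether the mice are paired. Differences of the dim probe sets are limited by signal near the floor.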
